A study of Mus musculus with 2 samples.

Results

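The mitochondrial genome of mouse yolk sac DNA was examined as the 326 consecutive windows of 50 bp that make up chrM of the mm10 build, chosen by position alone out of 54510762 such windows over all chromosomes. The study put the limb enhancer II1, joined to a reporter, into T-DOM, a regulatory domain beside the Hoxd genes, and read the DNA around the insertion with nCATS, a Cas9-targeted nanopore method. In nCATS the existing ends of genomic DNA are dephosphorylated, Cas9 makes fresh cuts, and adapters are ligated to the fresh ends, where the reads start. The guides were aimed at the insertion region on chromosome 2 and at the transgene, so mitochondrial reads are part of the untargeted background of these libraries. There were 2 libraries, 1 of the II1 T-DOM 542 allele and 1 of the II1 T-DOM 320 allele, each made from the yolk sac of the B6CBAF1 strain at E12.5, without treatment. Parents were heterozygous for the allele, and the labels give neither the zygosity of the embryos nor how many yolk sacs went into a library. With 1 library per allele there are no replicates, so every test compares 2 libraries, or 2 genomes within a library, and never 2 alleles.

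Mitochondrial DNA is a small closed circle present in many copies per cell, and it encodes ribosomal RNAs, transfer RNAs and subunits of the respiratory chain. Its control region holds the promoters and the origin from which the heavy strand is copied, and a short hairpin between tRNA genes is the origin of the light strand. A closed circle has no end to which an adapter could be ligated, so a nanopore can read such a molecule only after it has been opened.

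The circle of mm10 is 16299 bp long with a GC content of 36.7% and holds 37 genes in GENCODE M21. RefSeq places the control region at chrM:15423-16299, which is 5.38% of the circle, and the light-strand origin at chrM:5160-5191. Base 1 is the first base of mt-Tf, the tRNA gene for phenylalanine, and the circle is opened there only in the reference file. Reads that pass this point are listed as 2 alignments, and the pieces were joined where 1 ended within 50 bp of the last base and the other began within 50 bp of the first base on the same strand.

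The sequences that matter most are those where reads began. In the 320 library 11 reads went around the whole circle and stopped within 40 bp of where they had started, and the 30 bases around their starts are shown first. Each runs 5′ to 3′ in the direction of the read, and the read begins at base 16. Capitals mark NGG where it fills bases 4 to 6 of the read, or CCN where it ends 4 bases before the read, the places where the PAM of Cas9, which cuts 3 bp from an NGG, would lie on either side of a cut. The first pair is the same place in mt-Nd5 read in both directions, by 1 read on the plus strand and 2 reads on the minus strand.
mt-Nd5, plus strand, chrM:13302-13331: tccttctcaactttactgGGGtttttccca
mt-Nd5, minus strand, chrM:13302-13331: tgggaaaaaCCCcagtaaagttgagaagga
mt-Co2, minus strand, chrM:7423-7452: tctattggcagaacgactCGGttatcaact
mt-Co3, plus strand, chrM:8924-8953: cgtaccaacacatgatctAGGaggctgctg
mt-Cytb, plus strand, chrM:14563-14592: tctgaggtgCCAcagttattacaaacctcc
mt-Cytb, plus strand, chrM:15142-15171: ttatcttaaCCTgaattgGGGgccaaccag
mt-Nd6, plus strand, chrM:13776-13805: ctataatcaCCCccaatactaaaaaaccca
mt-Nd6, plus strand, chrM:13789-13818: caatactaaaaaacccaaaattaatcagtt
mt-Tl1, minus strand, chrM:2666-2695: cctggctctgccaccctaataaccttctct
mt-Nd2, minus strand, chrM:4454-4483: tattcatcctatgtgggcaattgatgaata
The last 3 hold neither motif at those places.

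The control region is shown because 3 reads of the 320 library started in it, 2 at the same base and the other nearby.
control region, plus strand, chrM:15879-15908: ccatgaccaacataactgTGGtgtcatgca
control region, plus strand, chrM:15893-15922: actgtggtgtcatgcattTGGtatcttttt
The light-strand origin is shown because the longest mitochondrial read of the 542 library began just past it, in mt-Tc, and both are given on the plus strand.
light-strand origin, plus strand, chrM:5160-5191: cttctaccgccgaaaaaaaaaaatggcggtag
mt-Tc, start of the longest 542 read, plus strand, chrM:5180-5209: aaatggcggtagaagtcttagtagagattt
No full-circle read of the 320 library began in the tRNA cluster around this hairpin, and the 542 library has no such read. With so few full-circle reads, their absence there says little of this place.

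The mitochondrial share of reads differed between the libraries. Of the 3658 reads of the 542 library, 4 were mitochondrial, that is, had their longest alignment on chrM (0.109%, 95% Clopper-Pearson interval 0.0298 to 0.280%). Of the 7790 reads of the 320 library, 49 were (0.629%, 0.466 to 0.831%). The intervals do not overlap. Among reads of the mitochondrial genome and the autosomes, the 320 library had a mitochondrial share of 0.674% and the 542 library 0.118% (two-sided Fisher's exact test, odds ratio 5.72, interval 2.10 to 21.9, p = 4.15e-05, adjusted p = 0.000456 over 11 tests). It was the only 1 of the 11 tests to pass an adjusted p of 0.05. No read had alignments on both chrM and a nuclear chromosome, and 0 read names were common to the libraries.

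The libraries also differed in read length, the median autosomal read being 2135 bp in the 542 library and 5816 bp in the 320 library. Among reads under 2 kb, the mitochondrial share was 0.125% in the 542 library (2 of 1597) and 0.487% in the 320 library (8 of 1644). Among reads of 10 kb or more it was 0.461% (1 of 217) and 0.784% (18 of 2295). The share was higher in the 320 library in each of the 4 length classes compared, but within each class the intervals of the libraries overlapped. With reads of 5 kb or more alone, a comparison chosen after the data had been seen, the shares were 0.726% (29 of 3997) for the 320 library and 0.133% (1 of 752) for the 542 library. The odds ratio was 5.49 (interval 0.907 to 224), and with 1 mitochondrial read in the 542 library the difference no longer passed (Fisher's exact test, p = 0.0748, adjusted p = 0.823). Read length still differed within this set, where 217 of 752 reads of the 542 library and 2295 of 3997 of the 320 library had 10 kb or more. Allele, embryo, read length and depth differ together between these 2 libraries, and their parts cannot be told apart. The methods describe the same guide mixes for both alleles.

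Mitochondrial copies per diploid genome were taken as 2 times the mean depth of chrM over the mean depth of the 19 autosomes. Mean depth in the 542 library was 1.03 on chrM and 0.00509 on the autosomes, which gives 404 copies. Depths in the 320 library were 24.5 and 0.0287, which gives 1706 copies. The 320 value is 4.22 times the 542 value. With alignments of mapping quality 30 or more alone, the values were 420 and 1699 copies. Mapping quality is the aligner's score, from 0 to 60, for how well an alignment is told apart from other places in the genome. Counting read starts per base in place of depth gave 348 copies in the 542 library (exact 95% interval 94.9 to 893) and 1995 in the 320 library (1474 to 2640). The 4 reads of the 542 library thus give a wide range, while the intervals of the libraries do not overlap. These are ratios within libraries that can read opened circles only, and they were not calibrated against another measure of copy number.

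**Figure D1:**
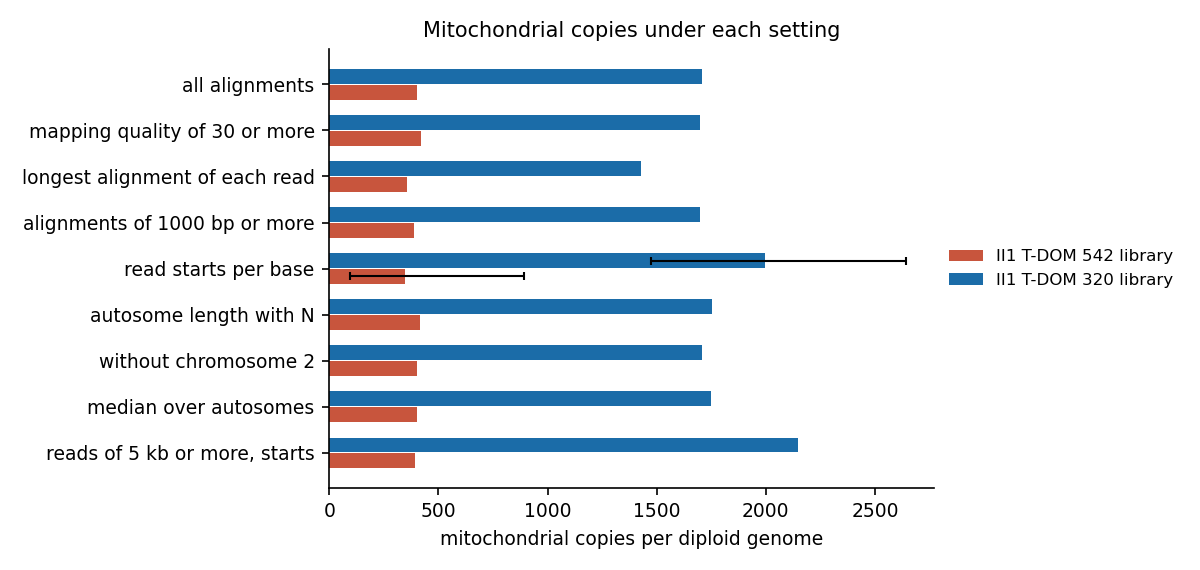
Mitochondrial copies per diploid genome (horizontal axis) in the 2 libraries under each setting, with exact 95% intervals drawn where read starts were counted. The 320 bars lie between 1429 and 2149 copies and the 542 bars between 348 and 420.

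Whole circles were read in the 320 library. Of its 49 reads, 12 spanned 90% or more of the circle (24.5%, 13.3 to 38.9%). In 11 of them the ends met within 40 bp, with spans of 16261 to 16299 bp and a median of 14 bases missing between the last base and the first. The other read, which began in mt-Tt, the tRNA gene for threonine, spanned 94.1% and lacked 968 bp. Spans were capped at the length of the circle by the way pieces were joined, so no mitochondrial read could span more. Autosomal reads have no such cap, and 1262 of the 320 library (17.5%) were longer than the circle. Among the 542 reads 0 of 4 spanned 90% or more, and with 4 reads the interval for a count of 0 reaches up to 60.2%. No difference between the libraries was detectable (320 against 542, Fisher's exact test, p = 0.563, adjusted p = 1). The difference of 24.5 percentage points between the libraries was 5.61 points at a limit of 80% of the circle, which the longest 542 mitochondrial read passes with 82.1%. It was 2.04 points for single alignments without joining.

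The full-circle reads began in genes of several kinds. In mt-Nd5, a subunit of complex I, 3 reads began at base 13316 or base 13317, and these were the only starts within 1 bp of each other that lay on opposite strands. The read on the plus strand ran from base 13317 to base 13316 and so covered each base of the circle. The reads on the minus strand lacked 11 and 13 bases. Another read with 0 bases missing began at base 14578 in mt-Cytb, the cytochrome b of complex III, which also held the start of a second full-circle read at base 15157. A pair of reads began at bases 13791 and 13804 in mt-Nd6, the complex I subunit encoded on the opposite strand to the other protein genes. The remaining 4 began in mt-Co2 and mt-Co3, subunits of complex IV, in mt-Nd2, a subunit of complex I, and in mt-Tl1, a tRNA gene for leucine. Of the 11 reads, 6 were on the plus strand and 5 on the minus strand.

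**Figure D2:**
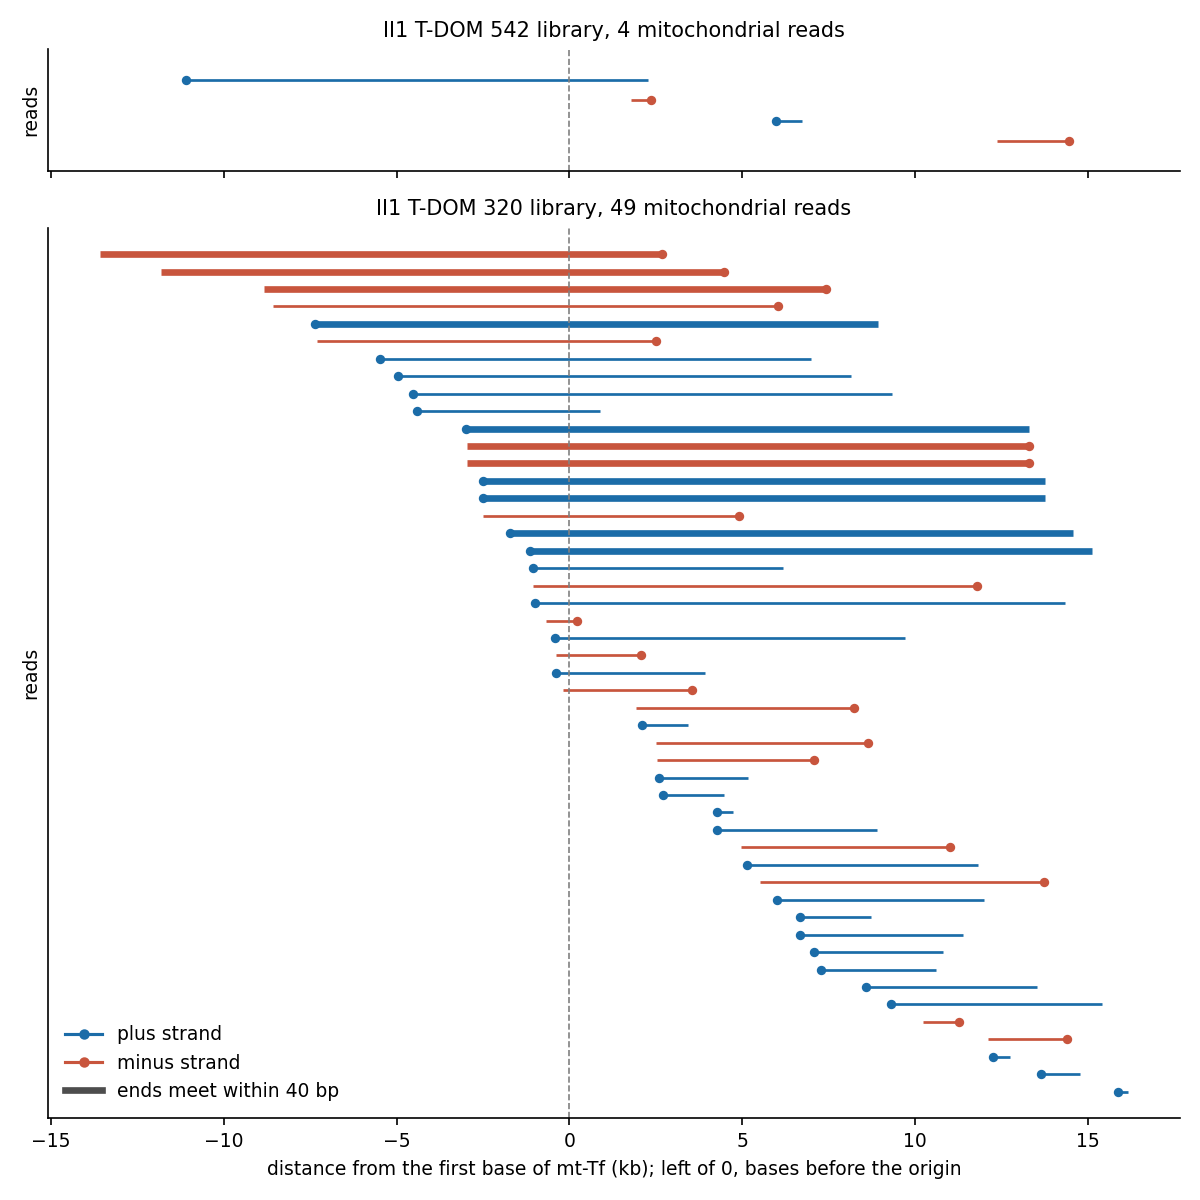
Each line is a mitochondrial read placed by its distance in kb from the first base of mt-Tf, with a dot at its start, and reads joined over the origin cross 0. Thick lines are the 11 reads of the 320 library whose ends meet within 40 bp, and the 542 library has none.

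Many reads ran over the origin of the reference file. Of the 49 reads of the 320 library 26 were joined there (53.1%, 38.3 to 67.5%), and each read with several chrM alignments was among them. The pieces met without a missing base in 21 of the 26, and the other 5 lacked from 2 to 19 bases at the origin. If starts were spread evenly over the circle, the number joined would be the summed share of the circle that the reads span, which was 24.4. The 26 reads observed lie close to that sum. Of them, 11 are the reads whose ends met, which add 10.99 to the sum and pass the origin almost wherever they start. Those 11 say little of how starts were spread. The 542 library had 1 joined read of 4, which was 13385 bp long and ran from base 5195 in mt-Tc to base 2280 in mt-Rnr2, the gene of the large ribosomal RNA. That library's summed share was 1.03. The joined share did not differ detectably between the libraries (Fisher's exact test, n = 49 and 4, p = 0.351, adjusted p = 1, odds ratio 3.32, interval 0.247 to 185).

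Lengths of 5 kb or more were about as frequent among mitochondrial as among autosomal reads of the 320 library. Mitochondrial length is the joined span, capped at the circle, and autosomal length is the longest single alignment, so the measures differ. Such a length was found in 29 of 49 mitochondrial reads (59.2%) and 3968 of 7221 autosomal reads (55.0%). The odds ratio was 1.19 (interval 0.648 to 2.22, Fisher's exact test, p = 0.569, adjusted p = 1). The median mitochondrial span was 6144 bp. Of the 542 library's mitochondrial reads 1 of 4 reached 5 kb (25%), against 751 of 3375 autosomal reads (22.3%; Fisher's exact test, p = 1, adjusted p = 1, odds ratio interval 0.0222 to 14.5). The other 3 reads were 577, 743 and 2084 bp long, in mt-Rnr2, mt-Co1 and from mt-Cytb into mt-Nd5.

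**Figure D3:**
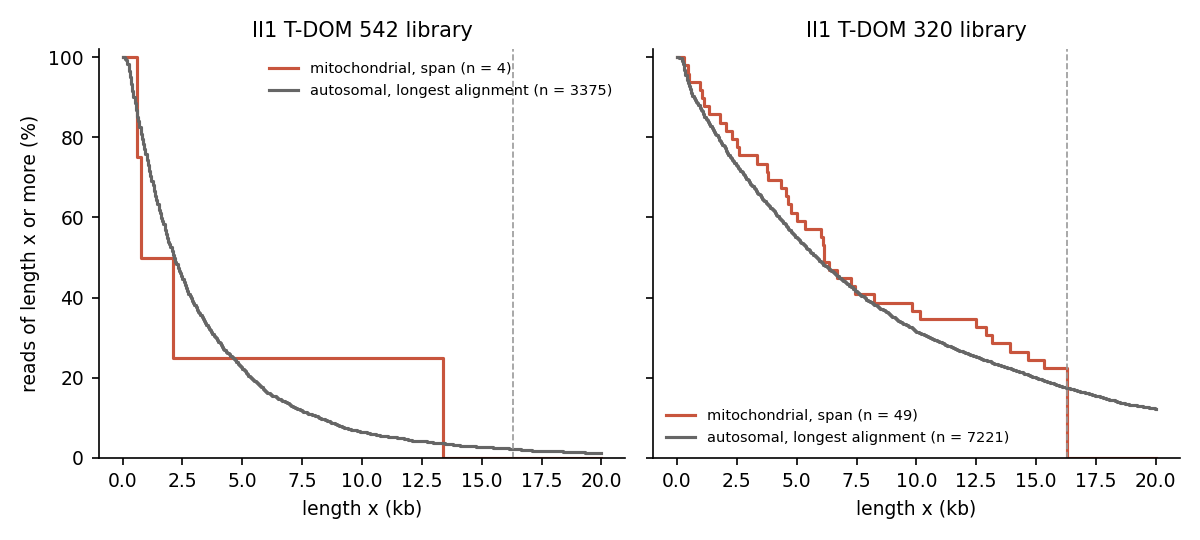
Share of reads (vertical axis, %) at least as long as the length on the horizontal axis (kb), for mitochondrial spans and for the longest alignment of autosomal reads in each library, with a dashed line at the length of the circle. At that length, where mitochondrial spans were capped, the mitochondrial curve of the 320 library drops from 22.4% to 0. The autosomal curve of that library, which has no cap, stands there at 17.5%.

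Both strands were read. In the 320 library 30 of 49 reads were on the plus strand (61.2%, 46.2 to 74.8%), which in the reference is the light strand, and in the 542 library 2 of 4 were. No difference was detectable (Fisher's exact test, p = 1, adjusted p = 1, odds ratio 1.56, interval 0.105 to 23.3). Mean depth in the 320 library was 14.1 on the plus strand and 10.4 on the minus strand. The median span was 5636.5 bp on the plus strand and 7402 bp on the minus strand, and reads of 90% or more numbered 7 and 5.

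Depth was even around the circle in the 320 library. Its windows ranged from 18.8 to 29 with a median of 25, a highest window 1.54 times the lowest, and a coefficient of variation of 9.33%. No window was at 0, and 315 of 326 had a depth of 20 or more. The lowest window, chrM:15101-15150, lies in mt-Cytb. The highest value was shared by 7 windows, of which the first, chrM:7801-7850, lies in mt-Atp8, which encodes a subunit of ATP synthase. That peak holds alignments of quality 0 or 1, described with the nuclear copies. With quality 30 or more alone its first window had a depth of 25, and the highest value, 28, lay in 13 windows from chrM:2751-2800 in mt-Nd1, while the lowest window was the same. By contrast, 55 windows of the 542 library (16.9%) had a depth of 0, the median was 1 and the highest value 2, so its profile is the outline of 4 reads. Its windows at 0 run on from chrM:2401-2450 at the end of mt-Rnr2, and its highest value, in 64 windows, first appears at chrM:1801-1850 in the same gene.

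Depth did not follow base composition. Over the 326 windows, depth and GC content gave a Pearson's r of -0.02 for the 320 library and of 0.05 for the 542 library. Between the libraries r was -0.42 and Spearman's rho -0.45. Neighbouring windows share reads, and the 542 values rest on 4 reads, so these are descriptions of the profiles with few independent points.

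**Figure D4:**
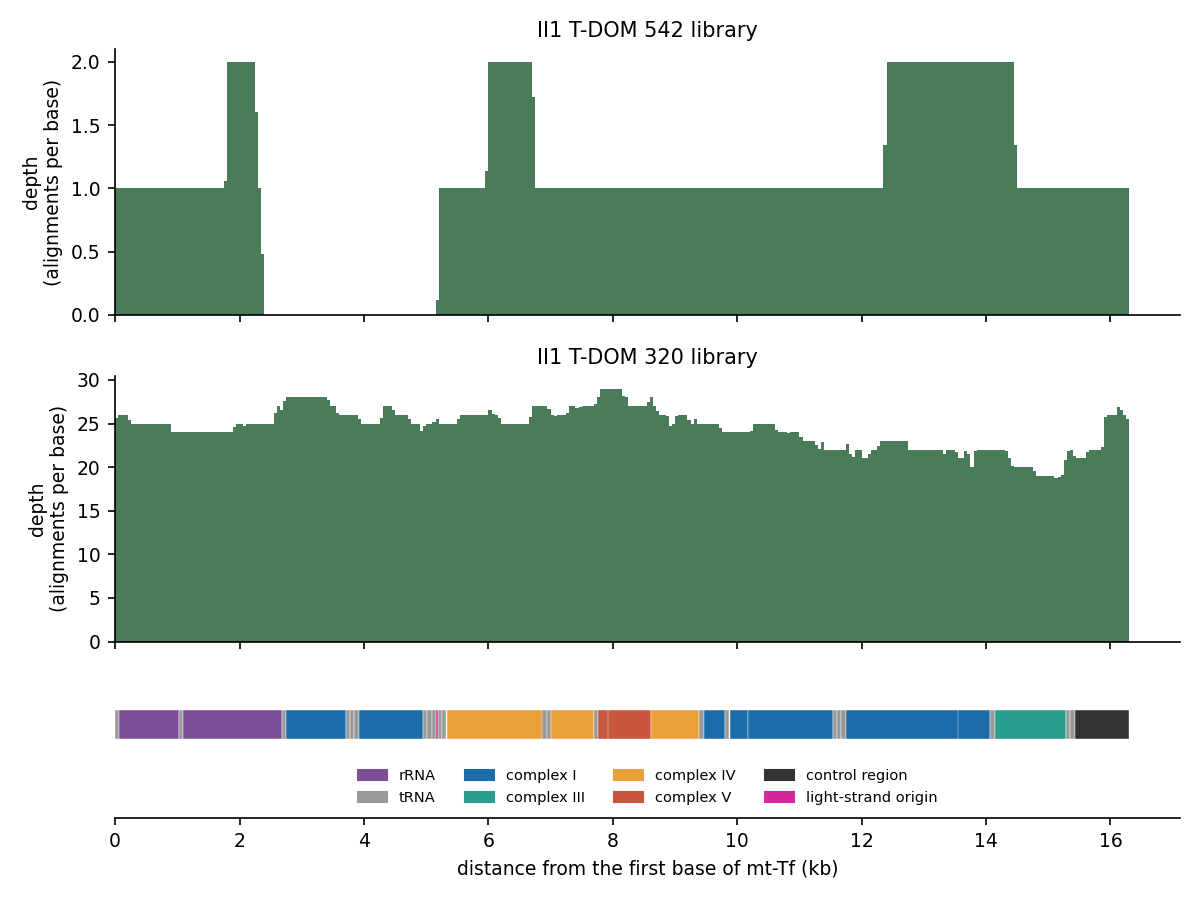
Depth (alignments per base, vertical axes) in 50-bp windows by distance in kb from the first base of mt-Tf for each library, above a map of the genes by role. The 320 library stays between 18.8 and 29, whereas the 542 library lies between 0 and 2.

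The ribosomal RNA genes stood near the mean of the 320 library. mt-Rnr1, the small ribosomal RNA, had a depth of 25.03 there and 1 in the 542 library. mt-Rnr2 had 24.6 and 1.12. The 542 library covered mt-Rnr1 throughout, but its depth over mt-Rnr2 ended at base 2374, short of the end of the gene at base 2675. Together the ribosomal genes make up 15.6% of the circle and held 5 of the 49 starts of the 320 library and 1 of the 4 of the 542 library.

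Among the genes of the respiratory chain, the 7 subunits of complex I ranged from 21.5 in mt-Nd6 to 27.6 in mt-Nd1 in the 320 library. They make up 39.0% of the circle and held 20 of the 49 starts. The 3 subunits of complex IV, cytochrome c oxidase, ranged from 25.7 in mt-Co1 to 26.6 in mt-Co2, an order that turned at quality 30 or more, with 25.6 in mt-Co1, 24.1 in mt-Co2 and 22.9 in mt-Co3. mt-Cytb, the only subunit of complex III that the circle encodes, had the lowest depth of all 37 genes in that library, 20.004, at either setting. With all alignments mt-Atp8 had the highest, 28.9, and mt-Atp6, the gene that overlaps it, had 27.9. At quality 30 or more they had 25 and 23.9, and mt-Nd1 was highest with its 27.6. Depth in the 542 library was 0 over mt-Nd1 and mt-Nd2, and it reached 2 over mt-Nd6. Neighbouring genes share most of their reads, so these depths are not independent of each other.

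The 22 tRNA genes ranged from 21.7 in mt-Tt to 27.4 in mt-Tk, the gene for the lysine tRNA, in the 320 library. At quality 30 or more mt-Tk had 24.4 and mt-Tl1 was highest among them, at 27.1. There were 7 of the 22 at 0 in the 542 library, all in the stretch without reads. Including mt-Nd1 and mt-Nd2, 9 of 37 genes were at 0 there, and 82.7% of the bases of the circle were covered.

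Starts in the control region were about as frequent as its length would give, within a wide interval. The control region had a depth of 23.7 in the 320 library and 1 in the 542 library. Of the starts of the 320 library 3 of 49 lay in it (6.12%, 1.28 to 16.9%), near the 5.38% of the circle that it takes up, and 4 of 49 ends did. None of the 4 starts of the 542 library did, where the interval reaches up to 60.2%, and the libraries did not differ detectably (Fisher's exact test, p = 1, adjusted p = 1). The light-strand origin had a depth of 25.5 in the 320 library and 0 in the 542 library. It held 0 starts in either library, and 1 end in the 320 library. With 49 starts a count of 0 allows a share of up to 6.12% (3 counts of 49), far above the 0.196% of the circle that this origin takes up, so the count says nothing of how often reads start there.

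No recurrent start or end, meaning 3 or more reads of a strand that begin or end within 10 bp of the next, was found in the 320 library. The 542 library has 2 reads on each strand and could not have any. With a distance of 20 bp the 320 library had 1, the 3 plus-strand starts between bases 15894 and 15908 of the control region, printed above. Exactly shared starts were the 2 at base 15894, 2 at base 4284 in mt-Nd2 and the place in mt-Nd5 where 3 full-circle reads began. Of the 49 reads of the 320 library, 7 thus shared a start within 1 bp.

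The sequence at the starts was examined after the data had been seen. The letters NGG at bases 4 to 6 of the read were found in 16 of the 49 mitochondrial reads of the 320 library (32.7%, 19.9 to 47.5%). Over the positions of the circle on both strands the share was 4.60%, with 2.44% on the plus strand and 6.77% on the minus strand. The letters CCN ending 4 bases before the read were found in 8 of 49 (16.3%, 7.32 to 29.7%). The pair of cytosines was more frequent 1 base nearer to the read, in 14 of 49 (28.6%, 16.6 to 43.3%). NGG at bases 4 to 6 or CCN ending 4 bases before the read was found in 23 of 49 reads (46.9%, 32.5 to 61.7%), against 9.06% of positions. Among the 11 reads whose ends met, 8 held either (72.7%, 39.0 to 94.0%). These include the 3 reads that began at the shared place in mt-Nd5, so the interval counts that place 3 times. These letters are what a start at a Cas9 cut would have beside it, but a match is a description of the letters and says nothing of what opened a molecule.

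The NGG letters had a similar share at autosomal starts of that library. There NGG was at bases 4 to 6 of 2223 of 7221 reads (30.8%, 29.7 to 31.9%), against 5.27% of autosomal positions, and the mitochondrial share did not differ detectably from it (Fisher's exact test, p = 0.758, adjusted p = 1, odds ratio 1.09, interval 0.559 to 2.04). CCN ended 4 bases before 16.8% of autosomal reads, the most frequent place of the pair of cytosines there. At 1 base nearer the autosomal share was 14.7% (13.9 to 15.5%), below the interval of the mitochondrial share. That place was picked for its height among several, and the difference was not tested. In the 542 library NGG was at bases 4 to 6 of 405 of 3375 autosomal reads (12.0%, 10.9 to 13.1%), and the pair of guanines was most frequent 1 base further on, at 18.4%. The pair of cytosines was most frequent there across the start of the read, at 22.1%, while CCN ended 4 bases before 9.96% of these reads. Of the 4 mitochondrial reads of that library 1 held NGG, the short read in mt-Rnr2.

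**Figure D5:**
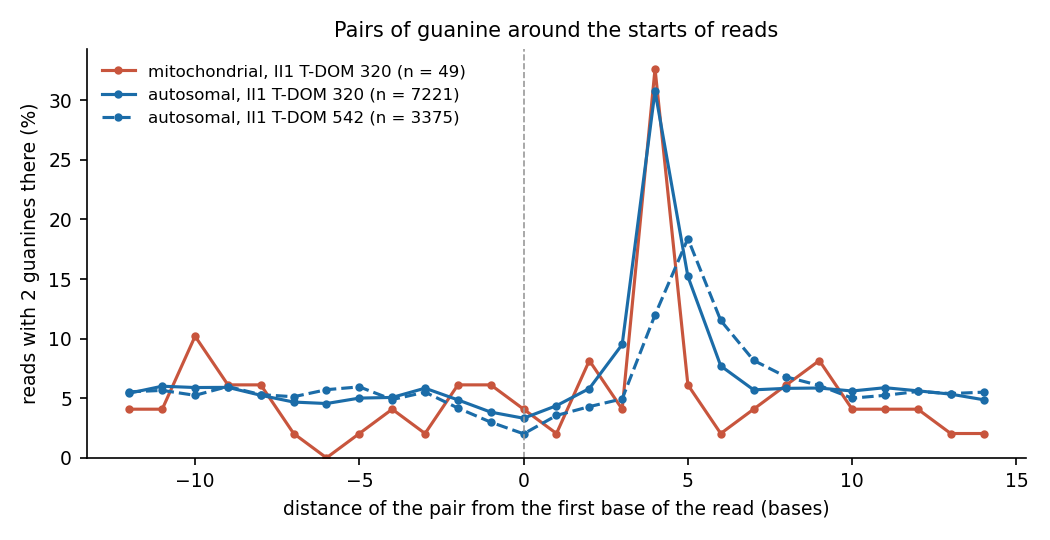
Share of reads (vertical axis, %) with a pair of guanines at each distance in bases from the first base of the read, for mitochondrial and autosomal starts of the 320 library and autosomal starts of the 542 library. The mitochondrial and autosomal curves of the 320 library both peak 4 bases into the read, at 32.7% and 30.8%.

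The published nCATS guides had no near match on the circle. With 1501 NGG sites on its strands, SCS12, SCS13 and SCS14 had 0 sites with up to 5 mismatches, so there was no such site at which a start could lie. The closest sites had 9, 9 and 8 mismatches, in mt-Rnr1 for SCS12 and SCS13 and in mt-Nd2 for SCS14. Of all starts 1 lay within 10 bp of the closest SCS12 and SCS13 sites, that of a 320 read at base 223, beside places where the cuts would follow bases 231 and 225.

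Nuclear copies of mitochondrial sequence touched few alignments. The longest in the reference lies on chromosome 1 from 24611535 to 24616188, 4654 aligned bases that are 99.9% identical to chrM:6390-11042, from mt-Co1 to mt-Nd4. Of the 320 library, 4 of the 76 chrM alignments lay inside that stretch, all with a mapping quality of 0 or 1, and the other 72 all had 60. In the 542 library all 5 had 60. At that copy on chromosome 1 there were 0 alignments in either library, which allows up to 0.0356% of the alignments of the 320 library and 0.0711% of those of the 542 library (3 counts of each total). Of the 4 alignments of low quality, 3 were whole reads and the fourth was a minus-strand piece of a joined plus-strand read that began in mt-Nd5. For those 3 reads, the circle and its nuclear copy cannot be told apart.

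The share of chrM alignments with a quality of 30 or more was 94.7% in the 320 library (72 of 76) and 100% in the 542 library (5 of 5), without a detectable difference (Fisher's exact test, p = 1, adjusted p = 1). Autosomal alignments reached it in 93.3% of cases in the 320 library, where the odds ratio of chrM over the autosomes was 1.28 (interval 0.477 to 4.85, Fisher's exact test, p = 0.818, adjusted p = 1). In the 542 library they reached it in 82.4% (Fisher's exact test against the 5 chrM alignments, p = 0.594, adjusted p = 1). A joined read gives 2 alignments, so these tests count more units than there were molecules.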

How the data were processed

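Base calling by the authors used Guppy 5.0.16, reads were aligned to mm10 by minimap2 2.15, and SAMtools and bedtools gave the alignment lists. The fifth column of these deposited lists is a score, the mapping quality, from 0 to 60, and no read sequence was used here. Positions count from 1. Depth, ends, strands and spans were computed with pandas 2.3.3 and numpy 2.4.6 under Python 3.11.15, tests with scipy 1.17.1 and plots with matplotlib 3.10.9, and nuclear copies were searched with BLAST 2.17.0. Joining, depth and the search for recurrent starts were checked on simulated data. A read belonged to the chromosome of its longest alignment. Autosome lengths left out unknown bases. Shares carry 95% Clopper-Pearson intervals, which cover counting error only, and the limit given for a count of 0 is 3 counts of the total. Fisher's exact tests were two-sided, with Benjamini-Hochberg adjustment over 11 tests, and odds ratios are conditional estimates. The named features are the control region, the light-strand origin, the ribosomal genes, the highest and lowest windows with their genes, up to 5 recurrent starts and ends per library, near matches with a start, and reads of 90% or more of the circle or joined, as ranges where over 10. Genes at the extremes of a role, shared starts and the 3 short reads were named after their values were seen. The members and lists were chosen with earlier results of these data known. The alternatives changed mapping quality, lengths, units, windows and distances. The analysis of start letters, the limit of 40 bp between ends and the comparison of reads of 5 kb or more were chosen after seeing the data.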

Additional observations from a re-analysis of the deposited data

How the results depend on the processing

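Of 57 alternatives, at least 12 could not come out otherwise, such as recurrent ends among the 2 reads per strand of the 542 library, and say nothing of stability. Of the other 45, 40 kept their direction and their side of the threshold, or stayed close to the value. Among them, the difference in reads of 90% or more of the circle, 24.5 points, was 5.61 at 80%, 22.4 at 95% and 2.04 without joining, and passed in none of these forms. The longest 542 mitochondrial read spans 82.1%, so that library's count of 0 was fixed at 95% and without joining. All 5 of its chrM alignments had quality 60, so a limit on quality could not change its mitochondrial counts. Where such a count was 0, the direction could not turn, and these forms add nothing on stability. With 4 mitochondrial reads the tests of plus-strand and joined shares had little power, so their side of the threshold says little of stability. Copies per diploid genome ranged from 348 to 420 in the 542 library and from 1429 to 2149 in the 320 library. The difference in mitochondrial share of reads, 0.556 percentage points, was 0.593 among reads of 5 kb or more, where it no longer passed with 29 and 1 mitochondrial reads. The difference in plus-strand share, 11.2 points, was -2.11 when alignments were counted in place of reads. In the 542 library the mitochondrial minus autosomal share of long reads, 2.75 points at 5 kb, was -2.74 at 2 kb and 18.6 at 10 kb, where 1 of 4 mitochondrial reads was as long. The mitochondrial minus autosomal share of NGG starts, 1.87 points, was -2.55 when the guanines could also lie 1 base further on, a setting chosen after seeing the data. None of these 3 passed its test in any form, and the cause was not tested. At a quality of 30 or more the highest window of the 320 library moved from mt-Atp8 to mt-Nd1. Recurrent starts in the 320 library rose from 0 to 1 with a distance of 20 bp. No paired analysis was possible because there is 1 library per allele, and for the same reason none could be left out. The ratio of highest to lowest window was not computed in the 542 library, where windows are at 0. Its 4 mitochondrial reads limit every value of that library, and shares within it span most of the range from 0 to 100%.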

Other observations

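A single read of the 320 library had 3 chrM alignments. Its joined plus-strand span of 13860 bp began at base 11766 in mt-Nd5 and ended at base 9326 in mt-Co3, and a minus-strand piece with a mapping quality of 0 lay within it, from base 7796 to base 9219. Without read sequences, its order along the read was not analysed here.

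Reads that covered less than 90% of the circle numbered 37 in the 320 library, with a median span of 4708 bp, and 14 of them passed the origin, beside a summed share of the circle of 12.4. The longest of them spanned 14616 bp, or 89.7%.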
